A study of Rattus norvegicus with 4 samples.

Results

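Pklr, Gckr, Gys2 and Pck1 are 4 genes at control points of liver glucose use, glycogen storage and glucose output. They were chosen from their measured ratios in these same arrays, so their ratios between treatments are given as a description and with no test. All probes whose annotation gave 1 gene symbol equal to one of these names were taken, which were 5 of 1936 probes (1 each for Pklr, Gckr and Pck1, and 2 for Gys2) and 4 of 958 measured genes. Liver of male Sprague-Dawley rats was sampled 18 h after intraperitoneal injection of 75 mg/kg alpha-naphthylisothiocyanate (ANIT), a toxicant of bile duct cells that stops bile flow, or of olive oil, its vehicle. The sources used here do not state the age of the rats. The 3 rats of each treatment were combined into 1 RNA pool, and both pools went onto every one of 4 spotted cDNA arrays. The dye for the ANIT pool was Cy5 on arrays 1 and 3, whereas arrays 2 and 4 carried it in Cy3. The treatment therefore had 1 replicate, and every error below is a pooled SD between arrays that share a dye orientation (n = 4 arrays). This SD covers hybridisation, and neither the difference between dye orientations nor any animal-to-animal spread.

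A hepatocyte takes up glucose freely and traps it as glucose 6-phosphate. Gckr encodes a regulatory protein of the hepatocyte nucleus that restrains this step between meals. Pklr encodes the pyruvate kinase of liver and red cells, which makes the last step of glycolysis and feeds carbon to fat synthesis. Gys2 encodes the liver glycogen synthase, which lengthens glycogen chains, and Pck1 encodes the cytosolic phosphoenolpyruvate carboxykinase, an early committed step of gluconeogenesis that opposes pyruvate kinase. In a fed liver Pklr is high and Pck1 low, and in a fasted liver the order is reversed.

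The stretches around the gene starts are shown because Pklr and Gckr lay below 0 together while Gys2 lay above it, and because 2 of these promoters hold well known control elements. They run from 250 bases before to 50 after the start in RefSeq (build GRCr8), which held an entry for all 4 genes, and are printed 5′ to 3′ on the strand of the gene. Capitals mark each match to the motifs named in the next paragraph. Pklr lies at chr2:176841014-176841313 (plus strand), Gckr at chr6:30795578-30795877 (minus strand), Gys2 at chr4:177137187-177137486 (minus strand) and Pck1 at chr3:182348322-182348621 (plus strand).
Pklr: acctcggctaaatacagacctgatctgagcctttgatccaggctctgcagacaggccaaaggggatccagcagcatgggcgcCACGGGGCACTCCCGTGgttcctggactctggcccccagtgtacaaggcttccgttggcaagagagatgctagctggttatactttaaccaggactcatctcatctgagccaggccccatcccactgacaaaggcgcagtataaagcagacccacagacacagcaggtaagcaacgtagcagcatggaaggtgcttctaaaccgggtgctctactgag
Gckr: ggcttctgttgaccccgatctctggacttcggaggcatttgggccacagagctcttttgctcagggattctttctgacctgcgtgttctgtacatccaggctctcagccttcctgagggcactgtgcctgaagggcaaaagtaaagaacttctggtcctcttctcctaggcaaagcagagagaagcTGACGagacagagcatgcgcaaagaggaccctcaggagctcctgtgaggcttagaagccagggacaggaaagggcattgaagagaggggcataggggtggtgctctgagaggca
Gys2: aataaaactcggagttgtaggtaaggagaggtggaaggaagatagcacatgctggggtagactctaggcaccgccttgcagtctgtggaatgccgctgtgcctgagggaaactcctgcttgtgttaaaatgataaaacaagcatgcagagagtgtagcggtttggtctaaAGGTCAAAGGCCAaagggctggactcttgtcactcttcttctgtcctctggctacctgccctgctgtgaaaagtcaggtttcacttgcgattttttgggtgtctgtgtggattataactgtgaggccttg
Pck1: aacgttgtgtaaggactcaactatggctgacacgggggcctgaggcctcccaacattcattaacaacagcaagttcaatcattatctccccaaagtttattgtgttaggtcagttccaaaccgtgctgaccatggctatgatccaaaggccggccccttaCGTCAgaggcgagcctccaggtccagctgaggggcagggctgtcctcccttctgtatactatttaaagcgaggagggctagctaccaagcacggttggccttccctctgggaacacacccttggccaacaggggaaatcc

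The motifs were searched on both strands in these windows and in all 33469 RefSeq promoters of the same length, which include those of noncoding genes. The Pklr promoter held 1 carbohydrate response element, written here as CACGNG and CNCGTG with 5 bases between them, from 168 to 152 bases before the start. It read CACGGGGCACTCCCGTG, and 11 promoters (0.0329%) of all held such a pair. Elements of this form are the textbook site through which glucose acts on this gene, by way of the factor ChREBP. Pck1 held the core of a cAMP response element, TGACG, on the opposite strand, from 90 to 86 bases before the start, where glucagon signalling is known to act on this gene. Gckr held the same core on its own strand 64 bases before the start, and 21.2% of all promoters held at least 1. Gys2 held a direct repeat of AGGTCA and AGGNCA with 1 base between them, 80 bases before the start, a form bound by nuclear receptors such as HNF4 and PPAR. This motif was added after the promoters had been read, and 0.155% of all promoters held it. The plain E-box CACGTG (6.42% of promoters) and the FOXO element TGTTTAC (3.78%) were in none of the 4 windows. Nor were exact matches to the HNF1 element (GTTAAT and ATTAAC with 1 base between, 0.00299%) or the glucocorticoid element (AGAACA and TGTTCT with 3 bases between, 0.0149%). Only these exact forms were sought, and the HNF1 form was in only 1 of all 33469 promoters. Sites that vary from these letters would be missed, so their absence was not tested. A match is a description of letters, and binding was not measured.

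The values are log ratios, read as log2 of ANIT over olive oil. This direction is the likely one, because ANIT is the agent in the sample titles and occupies the second channel, but neither direction nor log base is stated with the table, and every sign below turns if the ratio runs the other way. Array medians were -0.53, 0.85, -0.53 and 0.83 for arrays 1 to 4, so each array was centred on its median. Across the 1936 probes, which are not independent, Pearson's r lay from 0.958 to 0.979 for arrays with the same dye assignment, but from -0.383 to -0.370 for arrays with exchanged dyes. A gene was counted where its mean passed a given size and all 4 centred arrays had 1 sign. As the array medians differ between orientations, a gene whose deposited values agree between dyes can change sign after centring and go uncounted. Of 958 genes, 12 (1.25%) passed 2-fold as higher in the ANIT pool and 11 (1.15%) as lower, against 17 and 7 without centring, where every mean ratio was 0.15 higher (log2). At 1.5-fold the counts were 34 (3.55%) and 21 (2.19%). Precision is limited by the number of arrays, and spots could not be ranked by brightness.

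Of the 4 members, Pklr alone passed 2-fold, as lower, with centred arrays and values read as log2. Without centring none passed (Pklr 1.91-fold), and with the values read as natural logs Pklr (2.96-fold), Gckr (2.47-fold) and Gys2 (2.13-fold) all did. With ANIT in Cy5 alone Gys2 passed (2.41-fold), and with ANIT in Cy3 alone Pklr (3.14-fold) and Gckr (2.69-fold) did. Of all 958 genes, 59 passed 2-fold as higher and 7 as lower with ANIT in Cy5 alone. With ANIT in Cy3 alone 6 passed as higher and 36 as lower, and with natural logs 27 and 16. The side on which most genes passed thus turned with the dye over the whole array. Pklr and Gckr were past 1.5-fold as lower and Gys2 as higher, and Pck1 was past neither size. Since the members were chosen on this contrast, nothing is read from these counts against the shares of all genes. From lowest to highest, the mean centred log2 ratios were -1.08 ± 0.16 for Pklr (SD, n = 4 arrays, 2.12-fold lower), -0.90 ± 0.023 for Gckr (1.87-fold lower), 0.34 ± 0.28 for Pck1 (1.27-fold higher) and 0.76 ± 0.056 for Gys2 (1.69-fold higher). Among the 958 genes Pklr was the 9th and Gckr the 12th from the bottom, Gys2 the 25th and Pck1 the 80th from the top. With the sign turned, the same places count from the opposite ends.

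**Figure D1:**
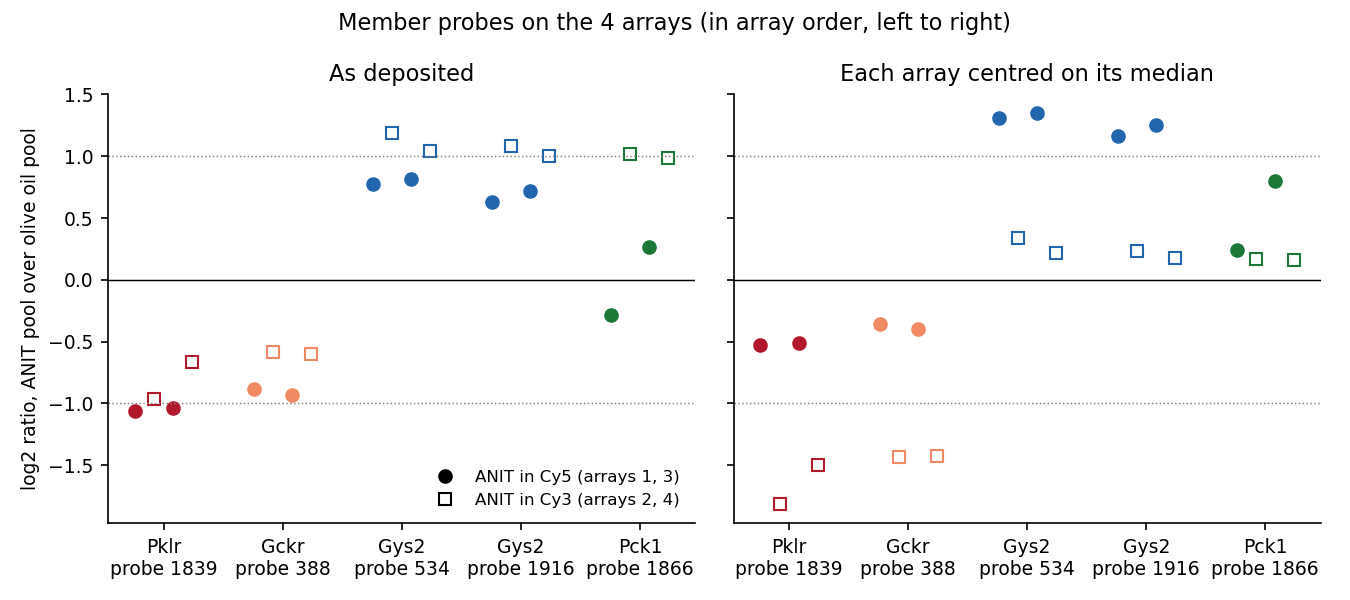
Log2 ratio of the ANIT pool over the olive oil pool for the 5 probes of the 4 genes, as deposited (left) and after centring each array on its median (right); filled circles are arrays with ANIT in Cy5, open squares those with ANIT in Cy3, and dotted lines mark 2-fold. Pklr and Gckr lie below 0 and both Gys2 probes above 0 on all 4 arrays in both panels, while Pck1 spans -0.29 to 1.01 as deposited.

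In glycolysis, the Pklr probe (probe 1839) had deposited values of -1.06, -0.96, -1.04 and -0.67 on arrays 1 to 4. All 4 values were below 0, and the dye orientations differed by 0.23, with -1.05 for ANIT in Cy5 and -0.82 for ANIT in Cy3. After centring the values were -0.53, -1.81, -0.51 and -1.49, so that centring moved the orientation means to -0.52 and -1.65, because the array medians themselves differ between orientations. The deposited mean was -0.93 (1.91-fold lower), which is under 2-fold, as was the mean of the ANIT in Cy5 arrays after centring (-0.52). The side of the 2-fold line on which Pklr falls thus depends on the centring, and its place below 0 did not. Within single arrays, 26.3%, 0.62%, 24.3% and 0.88% of all probes lay lower than Pklr on arrays 1 to 4. These shares take in the shift of all probes between orientations, as centring does. With the sign turned, these shares were 73.7%, 99.3%, 75.6% and 99.1%.

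For the control of glucose trapping, the Gckr probe (probe 388) had deposited values of -0.89, -0.58, -0.93 and -0.60. These were all below 0, and arrays of one orientation lay close together, giving the smallest SD of the 4 genes. After centring the values were -0.35, -1.43, -0.40 and -1.43, and the deposited mean was -0.75 (1.68-fold lower). The shares of probes lying lower were 34.7%, 1.14%, 30.5% and 1.19%, the same alternation by dye as for Pklr, or 65.3%, 98.8%, 69.5% and 98.8% with the sign turned.

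For glycogen, both Gys2 probes lay above 0 on every array. Probe 534 had deposited values of 0.78, 1.19, 0.82 and 1.04, and probe 1916 had 0.63, 1.08, 0.72 and 1.00. The higher value came from the arrays with ANIT in Cy3 in both probes. After centring the order turned, with 1.31, 0.34, 1.35 and 0.22 for probe 534 and 1.16, 0.24, 1.25 and 0.18 for probe 1916. Their means were 0.80 and 0.71, a difference of 0.099 against a median of 0.12 over the 261 genes with 2 probes. The gene's deposited mean was 0.91 (1.88-fold higher). Array medians over all probes were -0.53 on arrays 1 and 3, against 0.85 and 0.83 on arrays 2 and 4. Relative to these, Gys2 stood high among all probes mainly with ANIT in Cy5. Of all probes, 97.6% lay lower than probe 534 on arrays 1 and 3, against 71.6% and 64.9% on arrays 2 and 4. With the sign turned, 2.32% lay lower on arrays 1 and 3, and 28.4% and 35.1% on arrays 2 and 4.

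For gluconeogenesis, the Pck1 probe (probe 1866) had deposited values of -0.29, 1.01, 0.27 and 0.99. Arrays 2 and 4 nearly coincided as deposited, whereas arrays 1 and 3 lay on opposite sides of 0. After centring the values were 0.25, 0.17, 0.80 and 0.16, and array 3 stood apart from the other 3. The mean of 0.34 ± 0.28 was 0.21 without array 3, and 0.48 without array 1. Of the 4 genes, Pck1 alone had a deposited sign that differed between arrays.

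**Figure D2:**
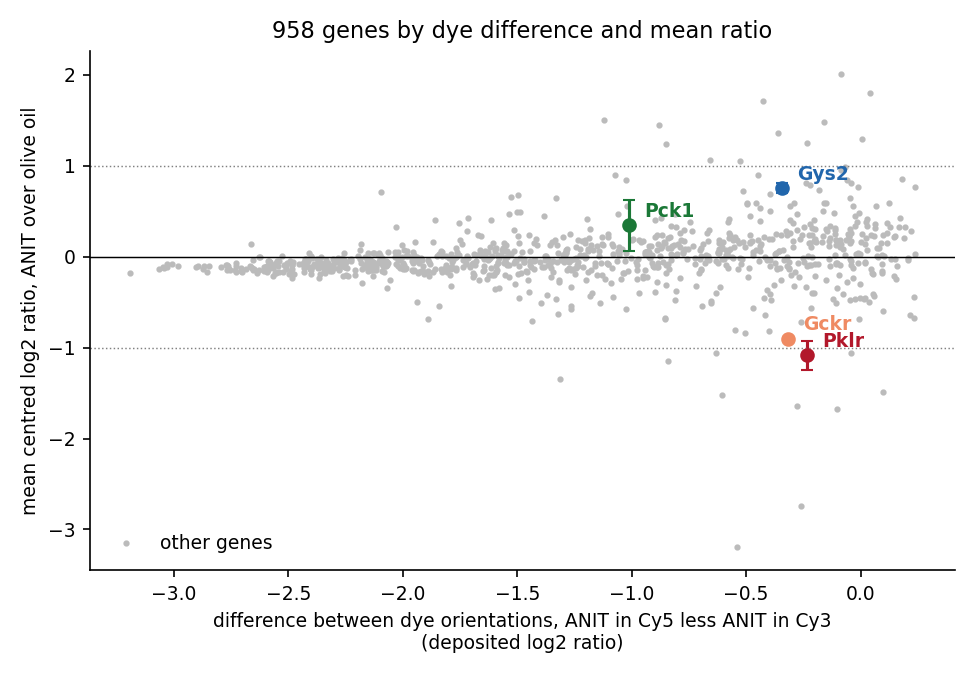
Mean centred log2 ratio (vertical axis) against the difference between dye orientations in the deposited values (horizontal axis) for 958 genes, with the members in colour and bars for the SD within dye orientation. Pklr, Gckr and Gys2 lie at the right, where the orientations nearly agree and ratios scatter widely, and Pck1 lies near the middle at -1.01.

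The difference between dye orientations (ANIT in Cy5 less ANIT in Cy3, deposited scale) was not used to choose the genes. Its range over all probes was -3.30 to 0.36, and its median was -1.25. It stood at -0.23 for Pklr, -0.32 for Gckr, and -0.32 and -0.37 for the Gys2 probes, at the 76.4, 73.5, 73.3 and 71.5 percentiles of all probes. Pck1 had -1.01, at the 55.2 percentile. Among the 200 other probes nearest to Pklr in this difference, mean centred ratios had a median of 0.099 and ran from -0.57 to 0.89 between the 5th and 95th percentiles. Pklr and Gckr lay below and the Gys2 probes within the range of their own neighbours (-0.57 to 0.88 for Gckr and -0.64 to 0.88 for probe 534), as did Pck1 (-0.43 to 0.56). The members were chosen on these ratios, so nothing is read from their place inside or outside these ranges. When each probe was centred on such neighbours, a setting chosen after the data were seen, the ratios were -1.19 for Pklr, -0.98 for Gckr, 0.67 for Gys2 and 0.28 for Pck1.

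**Figure D3:**
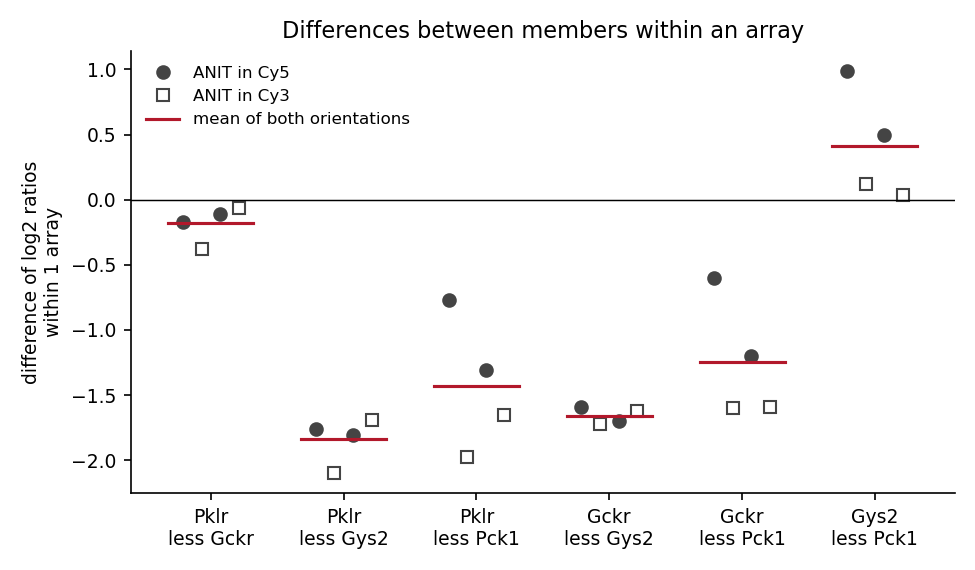
Difference of the log2 ratios of each pair of members within 1 array (vertical axis, log2), which centring does not alter; filled circles are arrays with ANIT in Cy5, open squares those with ANIT in Cy3, and the line is the mean of both orientations. Gckr less Gys2 lies between -1.72 and -1.59 on all 4 arrays, while pairs with Pck1 spread widely.

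Differences between members within an array carry no centring, and all 6 pairs were compared. Gckr less Gys2 was -1.59, -1.72, -1.70 and -1.62 on arrays 1 to 4, with a mean of -1.66 ± 0.073 (3.16-fold). Pklr less Gys2 was -1.76, -2.10, -1.81 and -1.69, with a mean of -1.84 ± 0.21 (3.58-fold). The Pklr and Gckr transcripts thus differed from that of Gys2 by a similar amount whichever dye carried ANIT. Pklr less Gckr was -0.17, -0.38, -0.11 and -0.066, with a mean of -0.18 ± 0.16. These neighbours in the order differed by little more than the SD between arrays. Gys2 less Pck1 was 0.99, 0.12, 0.50 and 0.036, with a mean of 0.41 ± 0.25, so that with ANIT in Cy3 the pair hardly differed. Pklr less Pck1 ran from -1.98 to -0.77 (mean -1.43 ± 0.31) and Gckr less Pck1 from -1.60 to -0.60 (mean -1.25 ± 0.30). Pklr lay below Pck1 on all 4 arrays, which repeat 1 pair of pools. As the members were chosen on their ratios, nothing is read from the signs of these differences. Such a difference shows unequal ratios and leaves unsaid which gene changed.

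The other genes of glucose metabolism came from 8 lists with 43 measured genes, which were drawn up with earlier results of these data known. Of these, 2 passed 2-fold as higher and 0 as lower, where 1.25% and 1.15% of all genes did, and their median was -0.038 against -0.040 over all genes. Both were transcription regulators. Of 12 glycolytic enzymes none passed 1.5-fold, and the median was -0.059. Khk, the fructokinase, had the lowest ratio at -0.48 ± 0.39, with centred values of 0.11, -1.35, -0.093 and -0.59, so its arrays disagreed in sign. Pfkfb1, the liver enzyme that makes and breaks the glycolytic activator fructose 2,6-bisphosphate, had -0.33 ± 0.093, and Pgk1, phosphoglycerate kinase, had -0.28 ± 0.062. Pgam1, phosphoglycerate mutase, was highest at 0.23 ± 0.060. Centred values changed sign with the dye for Pgk1 (0.31, -0.92, 0.43 and -0.95). They did so for Pgam1 too (1.01, -0.59, 0.96 and -0.48). As deposited, the difference between dye orientations was -0.059 for Pgk1 (mean -0.13) and 0.15 for Pgam1 (mean 0.38). Their change of sign arose in centring, because the array medians differ between orientations. Pklr (-1.08 ± 0.16) lay below all 12, but it was chosen on its ratio.

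**Figure D4:**
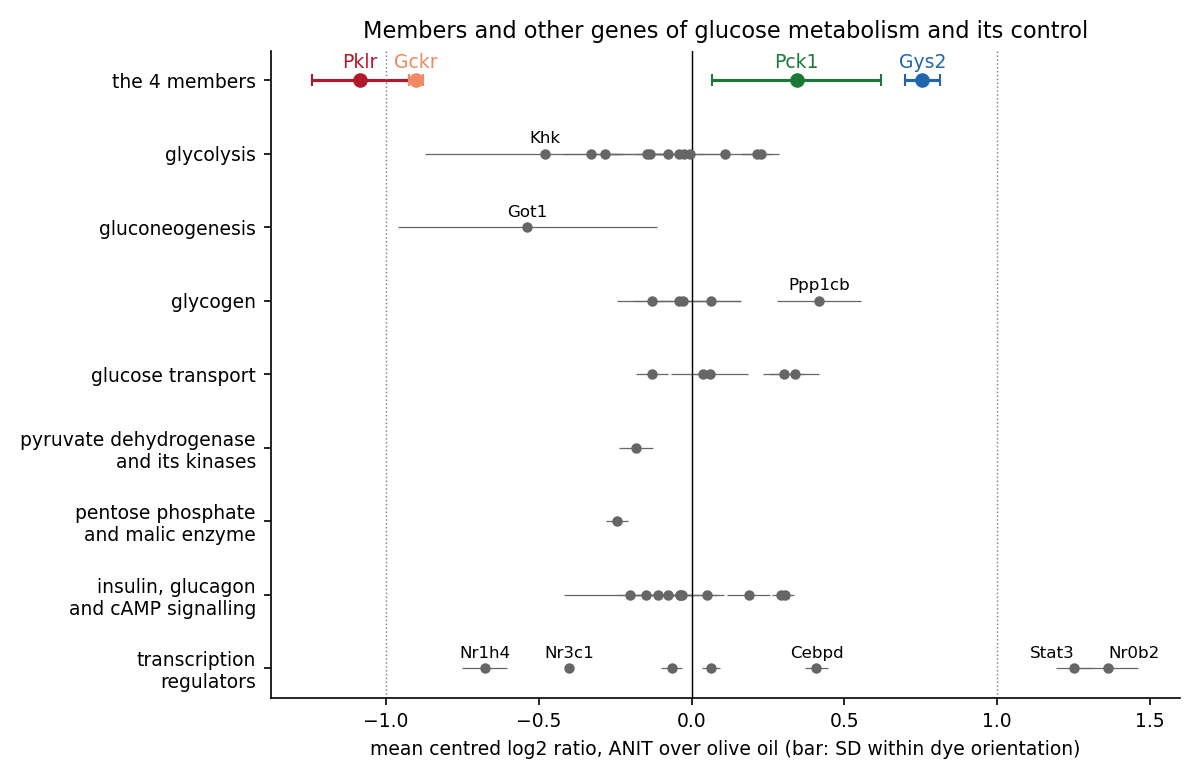
Mean centred log2 ratio (horizontal axis) of the 4 members and of 43 other genes in 8 lists (rows), with bars for the SD within dye orientation and dotted lines at 2-fold; genes beyond a size of 0.4 are named. The genes of the first 7 lists lie between -0.54 and 0.42, and Stat3 and Nr0b2 are the other genes past 2-fold.

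In glycogen metabolism 5 genes besides Gys2 were measured, with a median of -0.028 and none past 1.5-fold. Ppp1cb, a catalytic subunit of the phosphatase that activates glycogen synthase, had 0.42 ± 0.14, and Ppp1ca, another of its catalytic subunits, had 0.064 ± 0.093. Pygm, the muscle glycogen phosphorylase, had -0.13 ± 0.062, and Gsk3b, the kinase that inactivates glycogen synthase, had -0.041 ± 0.20. The liver phosphorylase Pygl was not analysed here. Among glucose carriers (5 measured, median 0.058), Slc2a2, the main glucose transporter of hepatocytes, had 0.34 ± 0.081, Slc2a8 0.30 ± 0.067, Slc2a1 -0.13 ± 0.051 and Slc2a9 0.058 ± 0.13. None of these carriers kept 1 sign on all 4 centred arrays, and Slc2a2 had 1.005, -0.22, 0.90 and -0.34. As deposited, Slc2a2 had a mean of 0.49 and a difference between dye orientations of -0.135, so its change of sign arose in centring.

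Besides Pck1, gluconeogenesis was represented by Got1 alone, the cytosolic aspartate aminotransferase, at -0.54 ± 0.43 with centred values of -0.39, -1.25, -0.0061 and -0.50. The pyruvate dehydrogenase kinase gene Pdk2 had -0.18 ± 0.056, and Me1, the malic enzyme that supplies reducing power for fat synthesis, had -0.25 ± 0.036. Me1 kept 1 sign on all 4 centred arrays and Pdk2 did not. Of 11 genes of insulin, glucagon and cAMP signalling, none passed 1.5-fold, and the median was -0.038. Only Prkar2a kept 1 sign on all 4 centred arrays, whereas Prkar1a had 0.865, -0.30, 0.91 and -0.26. As deposited, Prkar1a had a mean of 0.46 and a difference between dye orientations of -0.20. The largest were Prkar1a (0.31 ± 0.030) and Prkar2a (0.29 ± 0.027), regulatory subunits of protein kinase A, Prkaa2, a catalytic subunit of the energy sensor AMPK (-0.20 ± 0.21), and the kinase gene Akt2 (0.19 ± 0.070).

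Of 7 transcription regulators of liver glucose genes, 2 were past 2-fold as higher (1.25% of all genes) and 1 more was past 1.5-fold as lower (2.19% of all genes). Neither of the 2 passed 2-fold with ANIT in Cy3 alone or with the table read as a dye ratio. Nr0b2, the corepressor SHP that is induced by bile acids, had 1.36 ± 0.098, with centred values of 1.94, 0.93, 1.80 and 0.79. Stat3, which carries interleukin-6 signals and is known to lower gluconeogenic transcripts in liver, had 1.25 ± 0.059, with centred values of 1.87, 0.72, 1.77 and 0.66. Nr1h4, the bile acid receptor FXR, had -0.68 ± 0.073, and Cebpd, a factor of the acute phase, had 0.41 ± 0.037. Nr3c1, the glucocorticoid receptor, had -0.40 ± 0.0086. Nr0b2, Stat3, Nr1h4, Cebpd and Nr3c1 kept 1 sign on all 4 centred arrays, as did the 4 members and 174 of all 958 genes. Mlxipl, which encodes ChREBP, was not analysed here.

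All 4 members are mainly hepatocyte genes in liver, and in pooled tissue RNA fewer cells of a type and less RNA per cell cannot be told apart. Ratios give no level, so the tissue could not be checked against the absolute level of its markers. The 6 measured hepatocyte markers had mean ratios from -0.68 (Apoa1) to -0.015 (Fah) with a median of -0.17. None was counted at 1.5-fold, since Apoa1, past that size, had 0.11 on array 3 after centring. As deposited, Apoa1 had a mean of -0.53 and a difference between dye orientations of -0.0091. The medians were -0.053 over 4 cholangiocyte, -0.0010 over 4 neutrophil and macrophage, -0.15 over 3 stellate cell and fibroblast and -0.21 over 3 endothelial markers, again with none counted. None of the 6 hepatocyte markers kept 1 sign on all 4 centred arrays. Pklr and Gckr lay below and Gys2 and Pck1 above all 6, but the members were chosen on their ratios. The part of cell makeup in the members' ratios was not tested. Of the housekeeping controls, Hprt1 had 0.086 ± 0.027 and Actb 0.040 ± 0.068.

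By root mean square difference over the 4 centred arrays, the gene nearest to Pklr was Acsl1, a ligase that activates long-chain fatty acids (0.15, with a mean ratio of -1.06), followed by the thrombin receptor gene F2r (0.21) and by Gckr (0.22), against a median of 1.29 over all genes. Nearest to Gckr were Rab25 (0.10), the nucleoside transporter gene Slc28a2 (0.13) and Lrp5 (0.16), a coreceptor of Wnt signalling. Nearest to Gys2 were the choline kinase gene Chkb (0.092), the p38 kinase gene Mapk14 (0.10) and Gsta2, a glutathione transferase (0.11). Nearest to Pck1 were the amino acid transporter gene Slc38a2, the nucleoporin gene Ranbp2 and Hspa9, a mitochondrial chaperone, all at 0.22. These distances rest on 4 arrays of 1 pair of pools and take in the dye difference as well as the ratio.

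**Figure D5:**
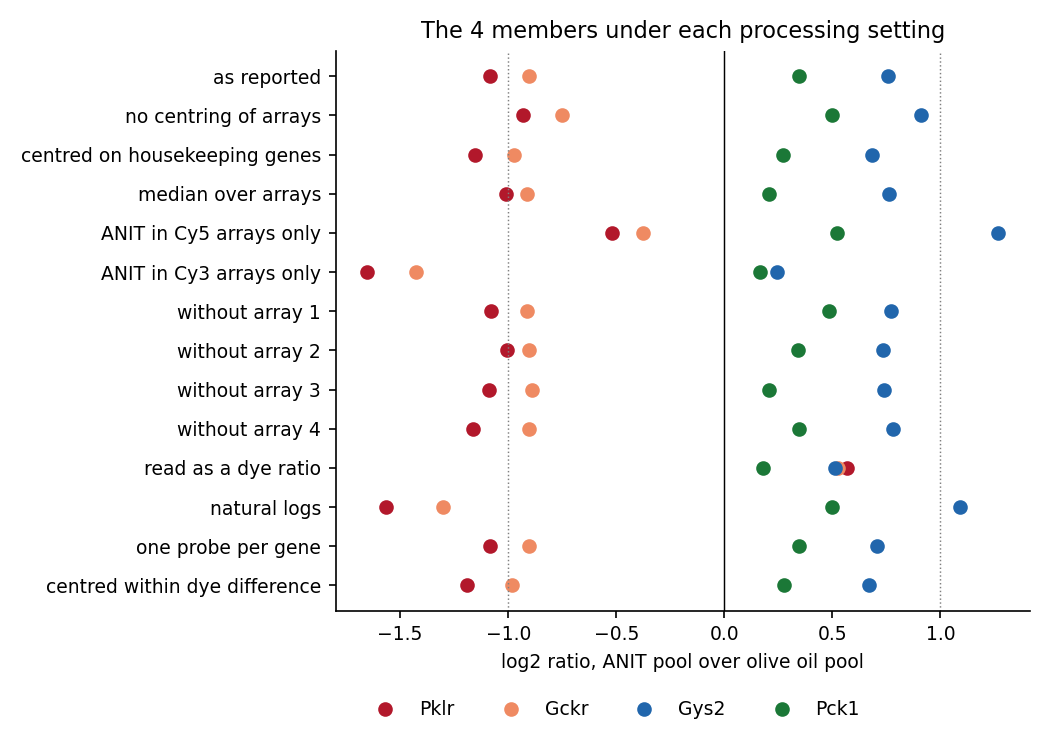
Mean log2 ratio of each member (horizontal axis) under each way of processing the table (rows), with dotted lines at 2-fold. Pklr and Gckr lie below 0 and Gys2 and Pck1 above 0 in every setting except the reading as a dye ratio, where all 4 lie between 0.18 and 0.57.

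The order Pklr, Gckr, Pck1, Gys2 from lowest to highest held in every setting except one. Where the table was read as a dye ratio, with the sign of arrays 2 and 4 turned before centring, Pklr had 0.57, Gckr 0.53, Gys2 0.51 and Pck1 0.18, and 0 of 958 genes passed 2-fold. As deposited, Pklr, Gckr and Gys2 had 1 sign on all 4 arrays, although the dyes were exchanged. With ANIT in Cy5 alone the centred values were -0.52, -0.38, 0.52 and 1.27 in that order, and with ANIT in Cy3 alone -1.65, -1.43, 0.17 and 0.24.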

How the data were processed

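Per the labels' protocols, poly(A) RNA was purified from total RNA pools of 3 rats per treatment, labelled during reverse transcription with the dyes Cy3 and Cy5, and applied to glass cDNA arrays. The deposited values are log ratios, treated here as log2; for background correction, normalization, log base and direction, the sources used here give nothing. The platform annotation paired 1432 of 1936 probes with 1 symbol and 19 with more than 1, and 485 are unnamed here. Symbols of 1429 were updated through Entrez identifiers to RefSeq (GRCr8), and no gene coordinates were taken for probes.

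Arrays were centred on their medians, probes of a gene averaged, and arrays averaged within and then over dye orientations. A gene was counted at a mean of at least 2-fold (or 1.5-fold) with 1 sign on all 4 arrays. As the 4 arrays repeat 1 pair of pools, no test of the treatment was made. Members and lists were chosen with earlier results of these data known. Named genes were the members, the 4 largest ratios of each list, the 3 nearest genes of each member and the housekeeping genes; regulators past 1.5-fold were also named. Nr3c1, Apoa1 and Fah were named after their values were seen. Protein sequences were not used here. Python 3.11.15, numpy 2.4.6, pandas 2.3.3 and matplotlib 3.10.9 were used. The alternatives are given in the closing section.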

Additional observations from a re-analysis of the deposited data

Results flagged for a closer look

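Pck1 had 1 array far from the others. After centring, array 3 had 0.80 against 0.25, 0.17 and 0.16 on arrays 1, 2 and 4, and the gap between array 3 and the next array made up 0.867 of the whole range, above the critical value of Dixon's test for 4 values. No other gene of the 40 named by rule showed such a gap, and about 1 in 20 groups of 4 independent samples would show one by chance. The arrays form dye pairs, so that this rate is only a guide. In the deposited values array 3 (0.27) and array 1 (-0.29), both with ANIT in Cy5, were the pair that disagreed, and which of them departs from the true ratio was not tested. Without array 3 the mean ratio was 0.21.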

How the results depend on the processing

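Centring on probes of like dye difference, and the runs on the 43 other genes other than the 1.5-fold count, were chosen after seeing the data; the other settings were planned. No paired analysis was possible because the arrays form 1 group. Leaving out each array in turn gave -1.16 to -1.01 for Pklr, -0.91 to -0.89 for Gckr, 0.73 to 0.78 for Gys2 and 0.21 to 0.48 for Pck1, with 23 to 24 genes past 2-fold. Without centring, Gckr had -0.75 and Gys2 0.91. Centred on the 3 probes of Hprt1 and Actb, they had -0.97 and 0.68, and within like dye difference -0.98 and 0.67. With ANIT in Cy5 alone, Pklr had -0.52, Gckr -0.38 and Gys2 1.27, with 66 genes past 2-fold (59 higher and 7 lower). With ANIT in Cy3 alone they had -1.65, -1.43 and 0.24. Here 42 genes were past 2-fold (6 higher and 36 lower), and 0 of the 43 other genes of glucose metabolism. Read as a dye ratio, the table gave 0.57, 0.53 and 0.51, with 0 genes past 2-fold and 0 of the 43. As natural logs, Pklr had -1.57, Gckr -1.30 and Gys2 1.09, with 43 genes past 2-fold. At 1.5-fold 55 genes were counted. Pck1 moved by less than its SD in every setting run. The cause of the difference between single orientations was not tested. Signal over background was not analysed here, so dim spots could not be told from bright ones.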
